A study of Mus musculus with 22 samples.

Results

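Glucocorticoid receptors and stress hormone targets were examined as a set of 9 genes out of 53379 genes in the count table. The genes were chosen by name from what is known of stress hormone signaling, with earlier results of these data known. The set comprised both receptors for corticosterone, the glucocorticoid receptor gene Nr3c1 and the mineralocorticoid receptor gene Nr3c2. It further comprised 7 genes known to be induced through these receptors, namely Fkbp5, Sgk1, Tsc22d3, Zbtb16, Ddit4, Klf9 and Pdk4. All 9 genes passed the filter on low counts, which left 40714 genes for testing.

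Corticosterone, the main glucocorticoid of mice, is released by the adrenal cortex during stress, and seizures are known to stimulate its release. It crosses into the brain and binds its receptors in the cytoplasm, where chaperones such as the Hsp90 proteins hold them ready for the hormone. The receptors then enter the nucleus and bind DNA at glucocorticoid response elements near their target genes. The mineralocorticoid receptor has the higher affinity for corticosterone and is best known from hippocampal neurons, whereas the glucocorticoid receptor is made in neurons and glia alike.

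The mRNAseq libraries were made from sorted nuclei of the left hippocampus of adult male C57/BL6N mice 24 h after status epilepticus, on the side opposite to the injection. Kainate mice received kainate, a glutamate receptor agonist, above the right hippocampus, and sham mice received NaCl solution there instead. NeuN+ nuclei are called neurons and NeuN- nuclei glia. The 4 groups were kainate neurons (n = 3), sham neurons (n = 3), kainate glia (n = 3) and sham glia (n = 2, replicates 1 and 3). The 8 mice of each treatment were pooled into 3 samples before sorting, so a library is the average of several mice, and sham glia lack the pool of replicate 2. Mice were anesthetized with medetomidine and ketamine, woken with atipamezole and given buprenorphine, and kainate mice were kept only if they had shown convulsive seizures. NeuN- nuclei include every nucleus without the neuronal protein NeuN, and RNA from nuclei does not include the cytoplasmic pool. The extraction text of the labels names right hippocampi, while the design text and the methods of the study place these samples on the left.

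The 11 libraries held between 12058875 and 45428465 counts. For 2 libraries, sham glia replicate 1 and kainate glia replicate 2, the RNA input was low (about 0.05 ng, amplified over 15 PCR cycles), whereas the other 9 started from 1 ng and 10 cycles. In the sort, the neuronal marker Rbfox3 was higher in every NeuN+ library than in any NeuN- library, and the glial markers Aldh1l1, Cx3cr1, Mbp and Pdgfra and the pericyte marker Pdgfrb were lower, while the endothelial marker Pecam1 overlapped between the fractions. No defining marker of any list was at 0 in a library. Glial marker levels in the NeuN- libraries were uneven, with a summed oligodendrocyte level of 40086 normalized CPM in sham glia replicate 1 against 5001 in kainate glia replicate 3.

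The binding site of both receptors was searched for in the reference genome (GRCm38, which is mm10), since it carries the hormone signal to the target genes. The search used the glucocorticoid response element consensus, which is AGAACA, 3 bases of any kind and TGTTCT, a palindrome that reads alike on both strands, over the annotated span of a gene and 10000 bases upstream. It covered 8 of the 9 genes, leaving out Nr3c1, and found exact matches in 2 of them. In Sgk1 (chr10:21882184-21999903, plus strand) there was 1 match in an intron, 189 bases before 1 RefSeq start of the gene and 965 bases before the next. In Fkbp5 (chr17:28399094-28517527, minus strand) there were 2 matches in introns, 65814 and 43716 bases after the RefSeq start. These are shown with 30 bases each on the strand of the gene, with the match in capitals.
Sgk1, chr10:21993694-21993723: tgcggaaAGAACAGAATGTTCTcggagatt
Fkbp5, chr17:28420314-28420343: ccacattcAGAACAGGGTGTTCTgtgctct
Fkbp5, chr17:28442412-28442441: tttgtttgAGAACAGCTTGTTCTaggcttt
Of all genome windows as long as the region searched, 2.90% held such a match for Sgk1 and 2.93% for Fkbp5. Within 5000 bases on either side of 23921 RefSeq gene starts, 0.209% of starts had one. A match describes the letters and not the binding of a receptor, and genes without one may hold sites of other spelling.

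The other 6 genes searched were Nr3c2 (chr8:76899442-77245012, plus strand), Tsc22d3 (chrX:140539528-140600659, minus strand), Zbtb16 (chr9:48654297-48836222, minus strand), Ddit4 (chr10:59949669-59951834, minus strand), Klf9 (chr19:23141226-23168134, plus strand) and Pdk4 (chr6:5483351-5496309, minus strand). Positions are those of GENCODE on mm10, and all 9 genes are annotated as protein coding. Nr3c2 shares 247 exonic bases with Gm10649, a noncoding gene on the opposite strand, and whether the counting used strand is not given in the sources used here. None of the other 8 genes shares exonic bases with another gene.

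The first comparison asked how the receptors and targets were distributed between neurons and glia, with both treatments weighted equally. Counts were compared with edgeR's quasi-likelihood test, with the false discovery rate (FDR) by the Benjamini-Hochberg method over all genes tested and the study's threshold of 0.25. At this threshold 7 of the 9 genes differed between NeuN+ and NeuN- nuclei, 2 of them higher and 5 lower in neurons, where 37.2% of all genes differed (16.8% higher and 20.4% lower). The median log2 fold change of neurons over glia was -1.03 over the 9 genes and -0.47 over all genes tested. With the pool of mice as a block, since same-numbered neuron and glia libraries of a treatment share a pool, the same count of 7 passed and 59.7% of all genes did.

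**Figure D1:**
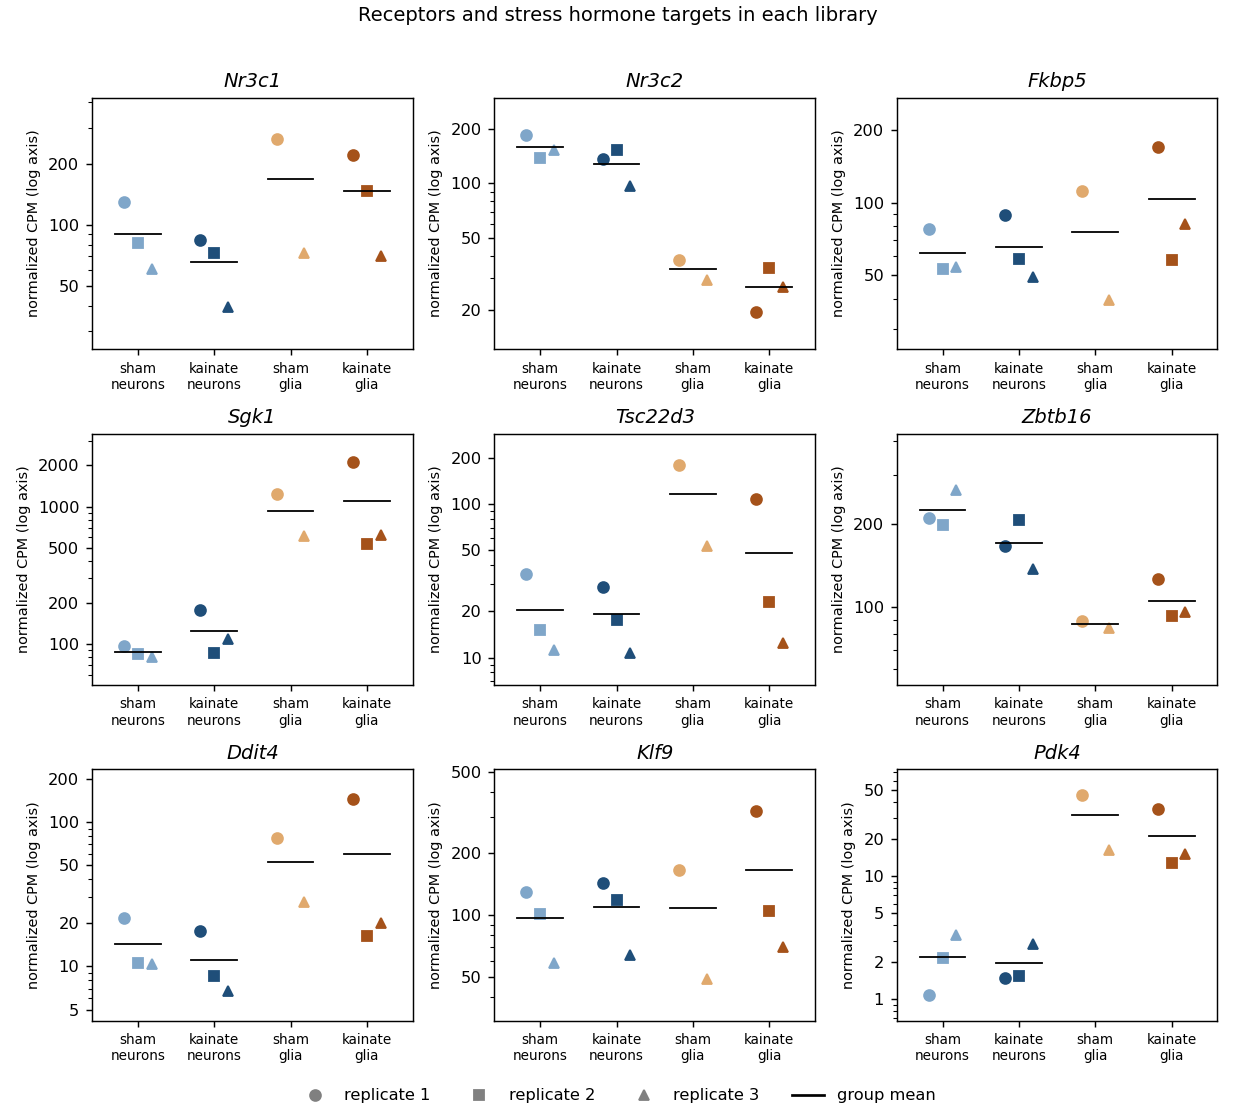
Level of each gene in each of the 11 libraries, as normalized CPM on a log axis, by group, with the marker shape giving the replicate number and the black line the group mean. Nr3c2 and Zbtb16 lie higher in all neuron libraries than in all glia libraries, Sgk1 and Pdk4 lie lower, and the other 5 genes overlap between the fractions.

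The mineralocorticoid receptor gene Nr3c2 was higher in neurons, with the largest log2 fold change toward neurons among the 9 genes. Normalized CPM for Nr3c2, the counts of the gene per 1000000 counts of the TMM-scaled library, were 185, 138 and 152 in sham neurons and 136, 153 and 96.8 in kainate neurons, in the order of the replicate numbers. In sham glia they were 38.0 and 29.5, and in kainate glia 19.6, 34.2 and 26.8. The fractions did not overlap, and 15.2% of all genes tested likewise showed no overlap in either direction. The log2 fold change of neurons over glia was 2.24 (SE 0.27, FDR 5.98e-05), and the call held in all 21 alternatives, with values from 2.03 to 2.48.

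The glucocorticoid receptor gene Nr3c1 had the opposite direction and a weaker call. Its normalized CPM was 129, 81.3 and 60.7 in sham neurons, 84.0, 72.9 and 39.4 in kainate neurons, 263 and 72.9 in sham glia and 222, 147 and 70.2 in kainate glia. The fractions overlapped, because the glia libraries of replicate 3 lay among the neuron libraries. Between the fractions the log2 fold change was -1.03 (SE 0.40, FDR 0.0980), and the call was lost without sham glia replicate 1, a low-input library (-0.40, FDR 0.406), and with low input as a covariate (-0.61, FDR 0.374).

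Between the receptors, levels were compared per kilobase of exon. In sham neurons Nr3c2 stood at 24.5 ± 3.72 CPM per kb (SD, n = 3) and Nr3c1 at 11.8 ± 4.58 CPM per kb. In kainate neurons the levels were 19.8 ± 4.43 CPM per kb for Nr3c2 and 8.51 ± 3.02 CPM per kb for Nr3c1. The ratio of Nr3c1 to Nr3c2 was therefore below 1 in all neuron libraries, from 0.336 to 0.588. In glia the order was the reverse, with Nr3c1 at 21.9 ± 17.5 CPM per kb in sham glia (n = 2) and 19.0 ± 9.85 CPM per kb in kainate glia (n = 3), against 5.21 ± 0.93 and 4.15 ± 1.13 CPM per kb for Nr3c2. There the ratio ran from 2.09 to 9.51. In each group the ratio was highest in replicate 1 and lowest in replicate 3, and the sham and kainate ratios overlapped in both fractions. Summed neuronal markers stood at 628 to 1034 normalized CPM over the glia libraries, against 3602 to 7637 over the neuron libraries. The part of neuronal transcripts in the glial Nr3c2 level was not tested.

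The genes whose pattern over the 11 libraries lay closest to each receptor were found among 12876 genes with a mean log2 CPM of at least 3, by the root mean square difference of log2 normalized CPM after each gene was centered on its own mean. For Nr3c1 these were Sdc3 (0.14), Bnip3l-ps (0.19) and Txndc16 (0.19), where the median over all genes compared was 0.86. For Nr3c2 they were L1cam (0.15), Mpp3 (0.16) and Pcsk2os1 (0.17), with a median of 1.09. For Fkbp5 they were Fcf1 (0.20), G2e3 (0.22) and Lysmd1 (0.22), with a median of 0.69.

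Sgk1 encodes a kinase that acts on ion channels and transporters and is a known target of both receptors. Its normalized CPM was 96.3, 85.0 and 80.8 in sham neurons, 177, 86.4 and 108 in kainate neurons, 1241 and 608 in sham glia and 2119, 536 and 621 in kainate glia. Every glia library was above every neuron library. The log2 fold change of neurons over glia was -3.27 (SE 0.42, FDR 8.28e-05). The summed levels of the oligodendrocyte, astrocyte, microglia, precursor, pericyte and endothelial markers were also higher in every glia library. Which of these cells carried the Sgk1 transcripts was not tested.

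Pdk4, which encodes a kinase that restrains pyruvate entry into mitochondrial oxidation, was the second gene with lower levels in all neuron libraries. Its normalized CPM was 1.07, 2.15 and 3.35 in sham neurons, 1.49, 1.55 and 2.84 in kainate neurons, 46.2 and 16.3 in sham glia and 35.4, 12.7 and 15.2 in kainate glia. Between neurons and glia the log2 fold change was -3.62 (SE 0.43, FDR 5.28e-05). Pdk4 was thus the lowest of the 9 genes in neurons, also per kilobase of exon, at 0.62 ± 0.32 CPM per kb in sham neurons (n = 3).

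Tsc22d3 encodes the glucocorticoid-induced leucine zipper protein, and Ddit4 encodes an inhibitor of mTOR signaling. Both were lower in neurons with overlapping fractions, Tsc22d3 with a log2 fold change of -1.92 (SE 0.55, FDR 0.0255) and Ddit4 with -2.18 (SE 0.55, FDR 0.0130). The normalized CPM of Ddit4 was 21.8, 10.6 and 10.4 in sham neurons, 17.6, 8.59 and 6.71 in kainate neurons, 77.8 and 28.1 in sham glia and 145, 16.3 and 19.8 in kainate glia. Both calls held in all alternatives that gave a p-value, but the sizes were smallest without kainate glia replicate 1, at -1.25 for Tsc22d3 and -1.33 for Ddit4. In Ddit4 the overlap came from sham neurons replicate 1 and kainate neurons replicate 1, which lay above the lowest kainate glia library.

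Zbtb16, a zinc finger transcription factor, was the only target of the 7 with higher levels in neurons. In normalized CPM it stood at 210, 199 and 265 in sham neurons, 166, 207 and 137 in kainate neurons, 89.5 and 83.9 in sham glia and 127, 92.8 and 96.2 in kainate glia. The fractions did not overlap, and the log2 fold change was 1.04 (SE 0.25, FDR 0.00831).

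Fkbp5 encodes a co-chaperone that lowers the affinity of the glucocorticoid receptor for its hormone, and Klf9 encodes a zinc finger transcription factor. Neither passed the threshold between the fractions, with a log2 fold change of -0.47 for Fkbp5 (SE 0.35, FDR 0.378, 95% CI -1.23 to 0.28) and -0.38 for Klf9 (SE 0.44, FDR 0.566, 95% CI -1.33 to 0.57). The intervals leave room for differences in either direction. Among the alternatives, Fkbp5 passed with a filter of 1 CPM in 3 libraries and without kainate glia replicate 3. Klf9 also passed without kainate glia replicate 3. Without sham glia replicate 3 the value was -0.75 for Fkbp5 and -0.69 for Klf9.

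**Figure D2:**
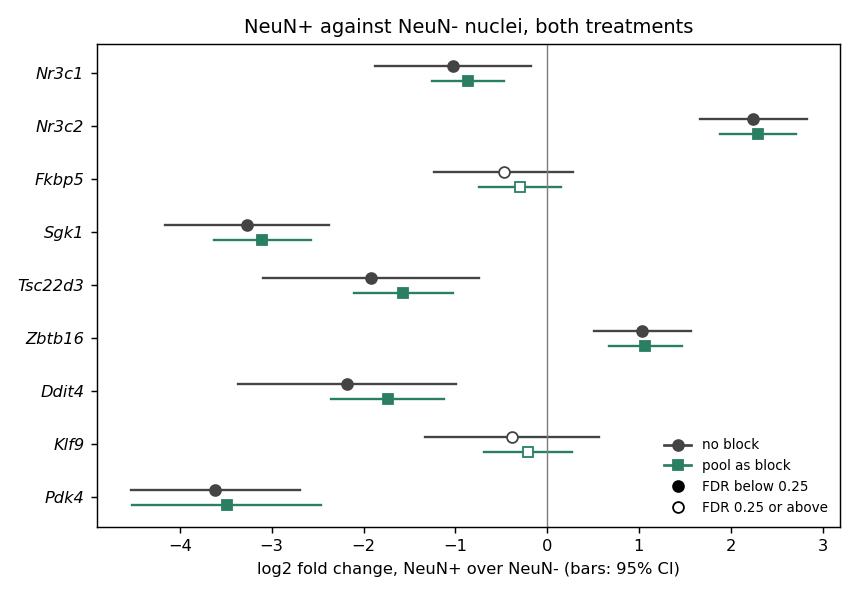
Log2 fold change of neurons (NeuN+) over glia (NeuN-) with its 95% confidence interval for each gene, without a block and with the pool of mice as a block, with filled symbols at an FDR below 0.25. The 7 filled genes are the same in both fits, Nr3c2 and Zbtb16 above 0 and Nr3c1, Sgk1, Tsc22d3, Ddit4 and Pdk4 below 0.

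The second comparison asked whether kainate changed the set in neurons of the contralateral hippocampus. Without a block, 0 of the 9 genes passed the threshold in edgeR, 0 had an unadjusted p below 0.05, and DESeq2 called 0 of 8, where 0.165% of all genes tested passed in edgeR. DESeq2 gave no p-value for Ddit4 in the fit without a block, in any of the comparisons. The labels do not say whether kainate and sham libraries of the same number form pairs, so the replicate number as a block was an alternative. With this block, edgeR again called 0 of 9, where 5.09% of all genes passed. Unadjusted p was below 0.05 in edgeR for 3 genes (Nr3c1, Sgk1 and Zbtb16). Of all 40714 genes tested, 2140 were higher and 1528 lower at that p. DESeq2 with the same block called 1 of 9, which was Nr3c1, and the share of all genes that it called was not determined.

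Nr3c1 had the lowest FDR of the set in neurons. It was lower in kainate than in the sham library of the same number in all 3 pairs, by log2 differences of -0.62, -0.16 and -0.62, although the groups overlapped. The log2 fold change was -0.47 (SE 0.53, FDR 1.00) without the block and -0.47 (SE 0.18, FDR 0.257) with it. Over all alternatives the value ran from -0.69 to -0.12. With DESeq2's size factors in place of TMM in the blocked fit, the gene passed (-0.48, FDR 0.193), as it did in DESeq2's own blocked test (-0.48, FDR 0.0813). Of all genes tested, 14.7% were lower in kainate in all 3 pairs, Ddit4 among them.

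Sgk1 and Klf9 were higher in kainate in all 3 neuron pairs, as were 15.7% of all genes tested. The log2 differences of Sgk1 were 0.87, 0.02 and 0.42, so that the size was set by replicates 1 and 3. Its blocked log2 fold change was 0.44 (SE 0.19, FDR 0.351, 95% CI 0.07 to 0.81). For Klf9 the blocked value was 0.17 (SE 0.18, FDR 0.975).

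Zbtb16 was lower in kainate in the pairs of replicates 1 and 3 (-0.34 and -0.95) and not in replicate 2 (0.06), with a blocked log2 fold change of -0.41 (SE 0.19, FDR 0.453). Fkbp5, which is often used as a readout of glucocorticoid receptor activity, stood at 77.4, 53.1 and 54.2 normalized CPM in sham neurons and 89.0, 58.4 and 49.4 in kainate neurons. Its blocked log2 fold change was 0.07 (95% CI -0.30 to 0.44, FDR 1.00). Tsc22d3 likewise stood close together, at 35.1, 15.2 and 11.2 in sham neurons and 29.0, 17.6 and 10.6 in kainate neurons, with a blocked value of -0.05 (95% CI -0.47 to 0.38, FDR 1.00). The remaining blocked values were -0.32 for Nr3c2 (FDR 0.745), -0.41 for Ddit4 (FDR 0.653) and -0.16 for Pdk4 (FDR 1.00).

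**Figure D3:**
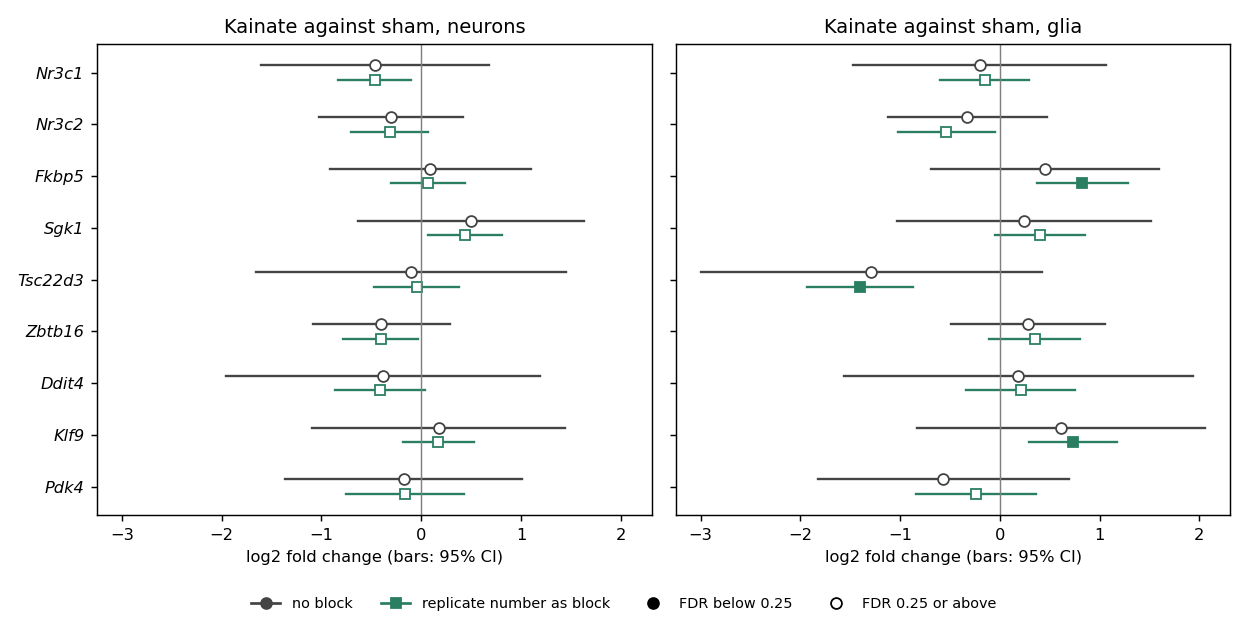
Log2 fold change of kainate over sham with its 95% confidence interval in neurons (left) and glia (right), without a block and with the replicate number as a block, with filled symbols at an FDR below 0.25. No gene is filled in neurons, and in glia Fkbp5 (0.83), Klf9 (0.74) and Tsc22d3 (-1.40) are filled with the block only.

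The third comparison asked the same of glia. Without a block, 0 of the 9 genes passed in edgeR, where 0.101% of all genes tested did, 0 had an unadjusted p below 0.05, and DESeq2 called 0 of 8. Zbtb16 was the only gene of the set whose kainate and sham libraries did not overlap in glia, as was the case for 8.22% of all genes tested, at a log2 fold change of 0.28 (SE 0.36, FDR 1.00). With the replicate number as a block, 3 of the 9 passed, 2 higher and 1 lower, where 5.79% of all genes did (2.93% higher and 2.86% lower). The blocked glia values rest on 2 pairs, replicates 1 and 3, since kainate glia replicate 2 had no sham partner. The pair of replicate 1 held a low-input sham library against a kainate library of full input. The SE and FDR of blocked values use a spread estimated from neuron and glia libraries together and shared across genes. They therefore do not measure the spread between the 2 glia pairs of a gene.

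Tsc22d3 fell in kainate glia with the block. Its normalized CPM was 180 and 53.0 in sham glia and 108, 23.1 and 12.5 in kainate glia, so the groups overlapped while both pairs moved down, by log2 differences of -0.74 in replicate 1 and -2.08 in replicate 3. The log2 fold change was -1.40 (SE 0.26, FDR 0.000331) with the block and -1.29 (SE 0.80, FDR 1.00) without it. The call held with either glia pair left out of the blocked fit, at -2.11 (FDR 1.76e-05) from the pair of replicate 3 and -0.79 (FDR 0.215) from the pair of replicate 1. Without a block the value was -0.12 without sham glia replicate 1, and with both low-input libraries left out the sign was reversed (0.21).

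Fkbp5 rose in kainate glia with the block. Its normalized CPM was 111 and 39.6 in sham glia and 170, 58.1 and 81.7 in kainate glia, with log2 differences of 0.61 and 1.04 in the pairs of replicates 1 and 3. The log2 fold change was 0.83 (SE 0.23, FDR 0.0280) with the block and 0.45 (SE 0.53, FDR 1.00) without it. Without the block the sign was reversed when kainate glia replicate 1 (-0.26) or sham glia replicate 3 (-0.12) was left out, and the value was 1.41 without sham glia replicate 1 and 1.69 without both low-input libraries. From the pair of replicate 3 alone the gene passed (1.02, FDR 0.0921), and from the pair of replicate 1 alone it did not (0.57, FDR 0.374).

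Klf9 also rose with the block, at 0.74 (SE 0.22, FDR 0.0557) against 0.62 (SE 0.67, FDR 1.00) without it. Its sign without the block was likewise reversed without kainate glia replicate 1 (-0.44) or sham glia replicate 3 (-0.020), and the value was 1.79 without sham glia replicate 1 and 2.03 without both low-input libraries. In normalized CPM it stood at 167 and 48.9 in sham glia and 321, 104 and 70.2 in kainate glia, with log2 differences of 0.95 and 0.52. Here the pair of replicate 1 alone passed (0.90, FDR 0.0884) and the pair of replicate 3 alone did not (0.50, FDR 1.00). In these fits with 1 glia pair the spread is estimated from the neuron pairs.

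The other 6 genes did not pass in glia with the block in edgeR. Sgk1, at 0.40 (95% CI -0.05 to 0.86, FDR 0.611), was higher in both pairs, by 0.77 and 0.03. Nr3c2 was lower in both pairs, by -0.95 and -0.14, with a blocked log2 fold change of -0.54 (SE 0.24, FDR 0.386), and it passed in DESeq2's blocked test and when DESeq2's size factors were used in the blocked fit (-0.61, FDR 0.197). Nr3c1 stood at -0.15 (FDR 0.983), Zbtb16 at 0.35 (FDR 0.736), Ddit4 at 0.21 (FDR 0.974) and Pdk4 at -0.24 (FDR 0.965). The value of Ddit4 averages pairs of opposite sign, at 0.90 in replicate 1 and -0.50 in replicate 3. From the pair of replicate 1 alone, which holds the low-input sham library, Nr3c2 (-0.997, FDR 0.0849), Sgk1 (0.73, FDR 0.183) and Ddit4 (0.85, FDR 0.200) passed, and from the pair of replicate 3 alone none of these 6 genes did. Over all genes tested, 31.5% were higher and 23.4% lower in kainate in both glia pairs, and 4 genes of the set were in each class.

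Glial marker levels moved in the same libraries. The summed oligodendrocyte markers were at 28010 normalized CPM in kainate against 40086 in sham glia in replicate 1 and at 5001 against 8915 in replicate 3. The precursor markers were at 1837 against 3612 and at 393 against 1108, and the astrocyte markers at 3810 against 5100 and at 729 against 1373. The microglia markers were at 2249 against 3985 in replicate 1 and at 768 against 709 in replicate 3. In the blocked fit 4 of 8 oligodendrocyte, 5 of 6 precursor, 5 of 8 astrocyte, 2 of 8 microglia and 1 of 6 pericyte markers fell, and 1 astrocyte marker, Gfap, rose, where 2.86% of all genes fell and 2.93% rose. Of 8 neuronal markers 2 rose and 0 fell, at a summed level of 821 against 969 normalized CPM in replicate 1 and 796 against 628 in replicate 3, and 0 of 7 endothelial markers passed. Fkbp5 and Klf9 thus moved against the summed oligodendrocyte, precursor and astrocyte levels, and Tsc22d3 moved with them. The part of these markers in the result was not tested, and in bulk samples fewer cells of a type and less RNA per cell cannot be told apart.

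**Figure D4:**
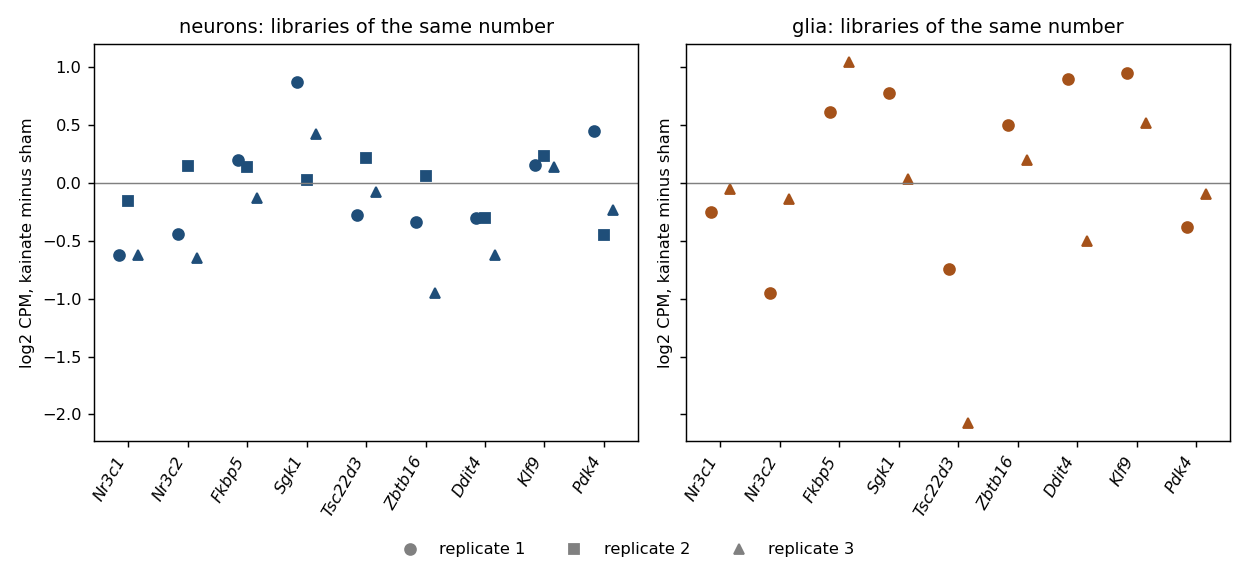
Difference in log2 normalized CPM between the kainate and the sham library of the same replicate number, for each gene in neurons (3 pairs) and glia (2 pairs), with the marker shape giving the replicate number. Tsc22d3 lies at -0.74 and -2.08 in glia and between -0.27 and 0.21 in neurons, and Nr3c1 lies below 0 in every pair of both fractions.

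The fourth comparison asked whether the response to kainate differed between neurons and glia. Without a block, 0 of the 9 genes passed, where 0.00246% of all genes tested did, 0 had an unadjusted p below 0.05, and DESeq2 called 0 of 8. In the fit blocked by replicate number, Tsc22d3 passed, with a response higher in neurons than in glia by 1.35 on the log2 scale (SE 0.34, FDR 0.0307), where 1.94% of all genes did. With the pool as the block instead, the difference for Tsc22d3 was 1.46 (SE 0.48, FDR 1.00), and 0 of 9 passed, where 0.0221% of all genes did. The difference also missed the threshold from the glia pair of replicate 1 alone (0.69, FDR 0.446), whereas it passed from that of replicate 3 alone (2.01, FDR 0.00330). Fkbp5 and Zbtb16 had blocked differences of -0.76 (FDR 0.422) and -0.76 (FDR 0.447), which did not pass. Fkbp5 passed in DESeq2's blocked test (FDR 0.242), and from the glia pair of replicate 1 alone Zbtb16 (-0.91, FDR 0.219) and Ddit4 (-1.31, FDR 0.0907) passed. The other blocked differences, which did not pass, were -0.62 for Ddit4 (FDR 0.881), -0.56 for Klf9 (FDR 0.780), -0.31 for Nr3c1, 0.22 for Nr3c2, 0.04 for Sgk1 and 0.08 for Pdk4 (FDR 1.00 for the last 4 genes).

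Libraries with the same number resembled each other across the set. In 6 of the 9 genes, Nr3c1, Fkbp5, Sgk1, Tsc22d3, Ddit4 and Klf9, replicate 1 was the highest library in all 4 groups, as was the case for 19.6% of all genes tested. None of the 9 had its lowest library in replicate 1 in all groups, against 24.7% of all genes. In kainate glia, Ddit4 in replicate 1 was 8.03 times the mean of the other replicates, Tsc22d3 6.05 times, Klf9 3.69 times and Sgk1 3.66 times. In sham neurons the same ratios were 2.07 for Ddit4, 2.66 for Tsc22d3, 1.62 for Klf9 and 1.16 for Sgk1. Nr3c2, Zbtb16 and Pdk4 were outside this pattern, and Pdk4 had its lowest neuron libraries in replicate 1 in both treatments. In kainate glia the coefficient of variation between replicates was 121% for Ddit4 and 109% for Tsc22d3, against a median of 49.3% over all genes tested.

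Other genes of the pathway were taken from lists put together by function, with earlier results of these data known. Of 14 chaperones and enzymes of hormone metabolism and transport, 0 passed without a block in neurons or in glia. With the block, 1 rose and 0 fell in neurons, where 3.19% of all genes tested rose and 1.9% fell. In glia 1 rose and 1 fell, where 2.93% of all genes rose and 2.86% fell. Abcb1b, which encodes a drug and steroid exporter, rose in glia with the block, from 10.3 and 16.4 normalized CPM in sham glia to 27.5, 21.5 and 20.8 in kainate glia (0.87, SE 0.32, FDR 0.189). The groups did not overlap.

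Of 12 coregulators that receptors recruit at target genes, 0 passed between kainate and sham without a block in neurons or glia, and with it 0 passed in neurons, where 5.09% of all genes did, while 2 rose and 1 fell in glia, against 2.93% and 2.86% of all genes.

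In a list of 30 other genes known to be induced by glucocorticoids, 2 rose in neurons and 1 in glia without a block, and none fell. Of all genes tested, 0.157% rose in neurons and 0.0933% in glia in that fit. With the block 11 rose and 3 fell in neurons, where 3.19% of all genes rose and 1.9% fell, and 12 rose and 3 fell in glia, where 2.93% of all genes rose and 2.86% fell. The median blocked log2 fold change over the list was 0.16 in neurons and 0.50 in glia, against -0.0010 and 0.11 over all genes tested. Without the block the median was 0.26 in neurons and 0.02 in glia, where 15 genes of the list had a positive and 15 a negative value, against -0.01 and 0.02 over all genes. Many genes of this list are also known to respond to neuronal activity, cytokines or metals. The list was chosen with earlier results of these data known, and some of its genes are among those the study reported as upregulated. Its counts are therefore not independent of these data. Between the fractions, 25 of the 30 were lower in neurons without a block, where 20.4% of all genes were, at a median of -2.13 against -0.47 over all genes.

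**Figure D5:**
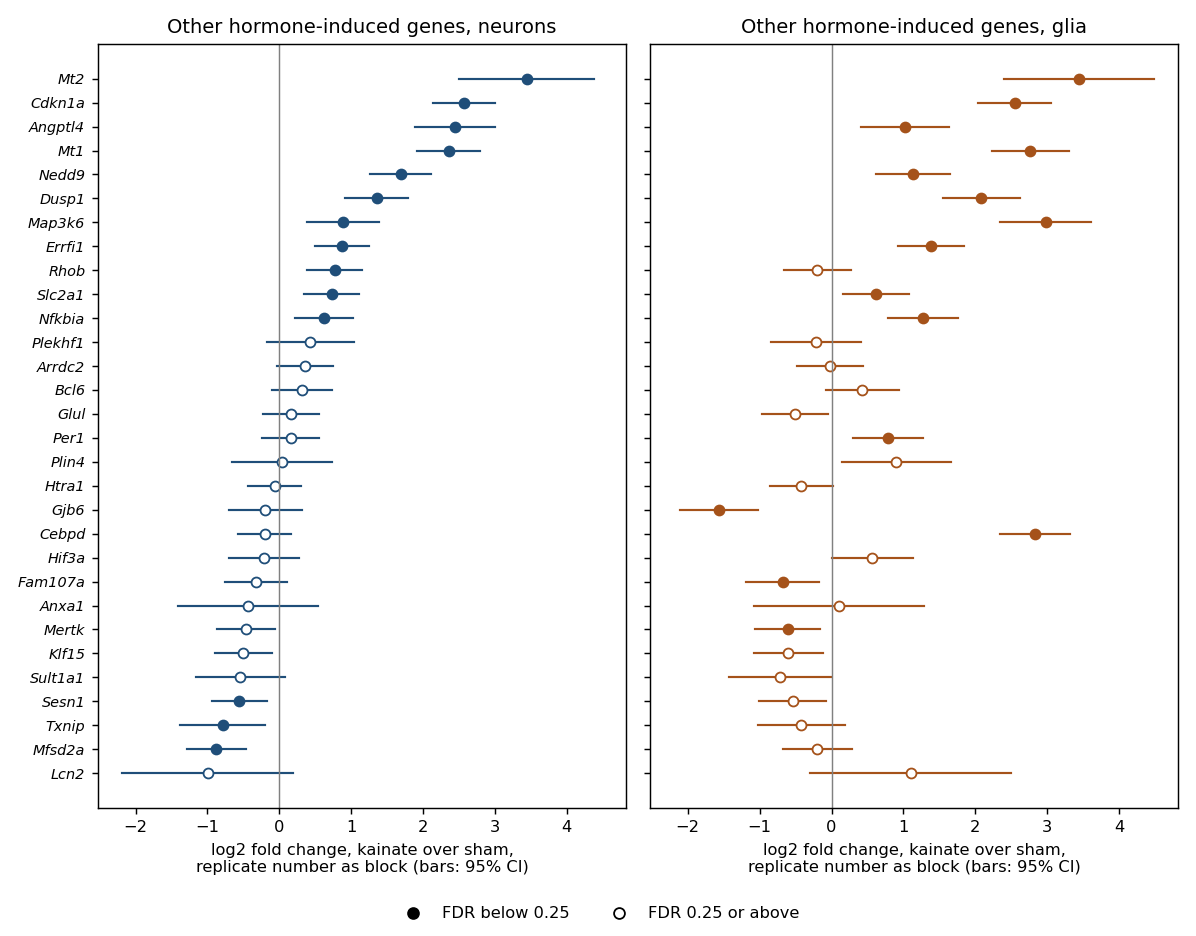
Log2 fold change of kainate over sham with its 95% confidence interval for 30 other glucocorticoid-induced genes in neurons (left) and glia (right), with the replicate number as a block and filled symbols at an FDR below 0.25. In neurons 11 genes are filled above 0 and 3 below, in glia 12 above and 3 below, and Cebpd lies at 2.83 in glia and at -0.20 in neurons.

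In neurons Nedd9, which encodes a scaffold protein of cell adhesion, rose from 14.8, 14.2 and 12.8 normalized CPM in sham to 49.4, 48.7 and 37.3 in kainate (1.70, SE 0.30, FDR 0.121 without a block). Angptl4, which encodes an inhibitor of lipoprotein lipase, rose from 1.81, 2.01 and 2.19 to 7.19, 10.3 and 16.2 (2.48, SE 0.48, FDR 0.155 without a block). The groups did not overlap in either gene, as was the case for 7.86% of all genes tested in neurons, and both calls were made without the block. With the block Cdkn1a, a cell cycle inhibitor, and Mt1, a metallothionein, also rose without overlap, by 2.57 (SE 0.22, FDR 4.82e-13) and 2.36 (SE 0.22, FDR 1.50e-11). In the same neuron libraries 4 of 8 astrocyte markers rose and 2 fell with the block, where 3.19% of all genes rose and 1.9% fell, at a summed level of 217 to 298 normalized CPM in sham and 293 to 476 in kainate, and the part of such transcripts in these results was not tested. Of the other marker lists, 2 of 8 microglia markers rose and 1 fell, 1 of 8 oligodendrocyte markers rose and 1 fell, 1 of 6 precursor markers fell and 2 of 8 neuronal markers rose, while 0 of 7 endothelial and 0 of 6 pericyte markers passed.

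In glia Cebpd, which encodes a transcription factor of the acute phase response, rose without a block (2.82, SE 0.51, FDR 0.142). It stood at 34.3 and 20.5 normalized CPM in sham glia and 293, 166 and 122 in kainate glia. In neurons it stood at 78.4, 44.3 and 43.5 in sham and 58.8, 43.0 and 39.0 in kainate, so kainate and sham overlapped there. The difference between the responses of Cebpd was -3.06 (FDR 1.00) without a block, -3.04 (FDR 8.27e-10) with the replicate number as a block and -3.11 (FDR 0.0325) with the pool as a block. Mt1 also rose in glia with the block and without overlap (2.76, SE 0.27, FDR 6.93e-11), from 75.5 and 16.4 normalized CPM in sham to 399, 90.2 and 145 in kainate.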

How the data were processed

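The authors trimmed the mRNAseq reads with Trim Galore 0.4.3, aligned them to mm10 with Rsubread and, using featureCounts and the GENCODE M16 annotation, counted the reads that mapped uniquely to each gene. The deposited values are raw counts for 53379 genes in 11 libraries, with 12058875 to 45428465 counts each. Sequencing was done on NextSeq500 or HiSeq3000, and which library ran on which is not given in the labels. The 11 bisulfite samples of the series were not used here.

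Genes without a symbol (105) were removed, low counts were filtered with filterByExpr (minimum count 10, minimum total 15) and libraries were scaled by TMM. One edgeR 4.0.16 quasi-likelihood model (R 4.3.3) held all 11 libraries with 4 group means (common biological coefficient of variation 0.600, 7 residual degrees of freedom). The study analyzed neurons and glia separately, and 1 model was used here since sham glia had 2 libraries. Normalized CPM are counts per 1000000 counts of the TMM-scaled library, and the log2 pair differences add a prior count of 2. Lengths per kilobase are those of merged exons in GENCODE M21. Alternatives included DESeq2 1.42.0, other filters and scaling, low RNA input as a covariate, each library left out and blocks. Blocked fits had 3 residual degrees of freedom. The scripts were tested on simulated counts.

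The replicate numbers in the labels do not say whether kainate and sham libraries form pairs. Deviations from the group means correlated over 0.1 in all 15 same-numbered pairs of libraries, from 0.16 to 0.79. These included 5 pairs of kainate and sham in one fraction and 5 pairs of neurons and glia from one pool, the latter at 0.24 to 0.67. Of 30 pairs of different number, at -0.79 to 0.46, 9 were also over 0.1. Kainate neurons replicate 2 correlated at 0.16 with sham neurons replicate 2 and at 0.17 with sham neurons replicate 3. Deviations within a group sum to 0, so part of the negative values is forced. Low-input libraries allow less precise values than their totals show, since PCR copies are not independent molecules.

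The 9 genes and all lists were chosen with earlier results of these data known. All 9 genes are named in each comparison. Other list genes are named where they passed without a block, or where they passed with the replicate block, their groups did not overlap and their p was among the 3 smallest of their list. A result that this rule would name among the coregulators is not reported here. The closest patterns were sought among genes with a mean log2 CPM of at least 3.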

Additional observations from a re-analysis of the deposited data

Results flagged for a closer look

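The response of Tsc22d3 to kainate was picked out because the test of its difference between neurons and glia passed the threshold with the replicate number as a block, at 1.35 on the log2 scale (FDR 0.0307, edgeR). In the pairs of same-numbered libraries, the log2 difference of kainate minus sham was -0.27, 0.21 and -0.08 in neurons and -0.74 and -2.08 in glia. Without a block the difference was 1.19 (FDR 1.00), and with the pool as a block it was 1.46 (FDR 1.00).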

How the results depend on the processing

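With 2 low-input glia libraries and 2 sham glia libraries in all, the values in glia, and those of the interaction that rest on them, are less certain than those in neurons. The count of genes called between NeuN+ and NeuN- stayed between 6 and 9 over all alternatives run, with 6 of 8 in DESeq2, which gave no p-value for Ddit4. In kainate against sham, the count of genes called changed only with the replicate number as a block. It was 0 in neurons, 3 in glia and 1 for the interaction with the block in edgeR, then 1, 4 and 2 with the block in DESeq2, and 1, 4 and 1 with the block and DESeq2's size factors. With the block and the glia libraries of number 1 left out it was 2 in glia and 1 for the interaction, and with those of number 3 left out it was 5 and 2. The DESeq2, size factor and left-out versions of the block were chosen after seeing the data, and the cause of these changes was not tested. The shares of all genes called in these versions were not determined, so their counts cannot be set against a general rate. With the pool as a block, no call changed between NeuN+ and NeuN-.

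Over the alternatives, 205 of 215 log2 fold changes in neurons, 198 of 233 in glia, 198 of 233 for the interaction and 176 of 188 between the fractions had the same direction and the same side of the threshold. Reversed signs, all for genes that did not pass in that comparison without a block, were few outside the fits with a library left out. Nr3c2 in the interaction was at -0.010 with the filter of 1 CPM, -0.063 with the pool as a block, -0.042 with low input as a covariate and -0.21 with the block and no glia of number 1. Low input as a covariate gave 0.18 for Nr3c1 and -0.20 for Ddit4 in glia. Leaving out both low-input libraries gave 1.03 for Nr3c1, 0.21 for Tsc22d3 and 0.66 for Pdk4 in glia, -0.70 for Sgk1, -0.31 for Tsc22d3 and -0.83 for Pdk4 in the interaction, and 0.094 for Klf9 between the fractions. With the block and no glia of number 1, Ddit4 was at -0.53 in glia and 0.064 in the interaction and Pdk4 at -0.088 in the interaction, and with no glia of number 3 Sgk1 was at -0.34 in the interaction.

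With 1 library left out at a time, without a block, signs were reversed within these ranges. In neurons they were -0.19 to 0.29 for Fkbp5, -0.083 to 0.45 for Klf9, -0.53 to 0.53 for Tsc22d3, -0.89 to 0.058 for Ddit4 and -0.54 to 0.26 for Pdk4. In glia they were -0.85 to 1.03 for Nr3c1, -0.26 to 1.41 for Fkbp5, -0.81 to 0.87 for Sgk1, -1.70 to 1.13 for Ddit4, -0.44 to 1.79 for Klf9 and -1.30 to 0.40 for Pdk4. For the interaction they were -1.50 to 0.39 for Nr3c1, -0.19 to 0.23 for Nr3c2, -1.32 to 0.30 for Fkbp5, -0.37 to 1.25 for Sgk1, -1.51 to 1.27 for Ddit4, -1.61 to 0.57 for Klf9 and -0.58 to 1.07 for Pdk4. Between the fractions they were -0.75 to 0.017 for Fkbp5 and -0.73 to 0.22 for Klf9. Where 1 sham glia library was left, it was assumed to vary like the other groups.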

Other observations

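Peptides of the stress axis and their receptors formed a list of 14 genes. Without a block 0 passed in neurons, where 0.165% of all genes tested passed, and 1 rose in glia, where 0.0933% rose. That gene was Ucn2, which encodes urocortin 2, a ligand of the second corticotropin-releasing hormone receptor. Ucn2 stood at 0.06 and 0.35 normalized CPM in sham glia and 11.6, 9.33 and 4.36 in kainate glia, at a log2 fold change of 5.27 (SE 0.97, FDR 0.142, edgeR), a size that rests on very few sham reads. With the replicate number as a block, 3 of the list rose in neurons, where 3.19% of all genes tested rose, and 2 rose and 1 fell in glia, where 2.93% rose and 2.86% fell. Crhbp, which encodes a protein that binds corticotropin-releasing hormone, rose in neurons from 26.5, 7.01 and 8.93 normalized CPM in sham to 61.0, 28.9 and 29.3 in kainate (1.65, SE 0.24, FDR 1.91e-06). Pnoc, the precursor gene of the peptide nociceptin, rose in neurons from 12.2, 4.13 and 4.45 to 28.3, 15.2 and 19.1 (1.73, SE 0.27, FDR 7.46e-06). The groups did not overlap for Ucn2 in glia or for Pnoc in neurons, and for Crhbp the lowest kainate neuron library was just above the highest sham one.

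Of 15 family relatives of the receptors and targets, 0 passed without a block in neurons or glia. With the block, 1 rose in neurons, where 3.19% of all genes tested rose, and 1 rose and 2 fell in glia, where 2.93% rose and 2.86% fell. Sgk2, a kinase related to Sgk1, stood at 32.6 and 22.6 normalized CPM in sham glia and 12.8, 15.6 and 9.92 in kainate glia (-1.27, SE 0.32, FDR 0.0151 with the block). Tsc22d2, related to Tsc22d3, stood at 172 and 104 in sham glia and 265, 313 and 174 in kainate glia (0.68, SE 0.22, FDR 0.0846), and it also rose in neurons (0.48, SE 0.18, FDR 0.203). The groups of both genes did not overlap, as was the case for 8.22% of all genes tested in glia and 7.86% in neurons. For Tsc22d2 the lowest kainate library was just above the highest sham one, at 173.6 against 172.1 in glia and 210 against 208 in neurons. Sgk2 and Tsc22d2 thus had the opposite sign of Sgk1 and Tsc22d3 in the blocked glia fit, where Sgk1 (0.40) did not pass the threshold.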
